A study of Mus musculus with 6 samples.

Results

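A set of 10 genes of sialic acid binding, signal-regulatory and paired immunoglobulin-like receptors were followed in mouse bone marrow macrophages with and without Raf kinase inhibitor protein (RKIP, gene Pebp1). They are Siglec1, Siglece, Cd33, Cd22, Sirpa, Lilrb4a, Lilra5, Pirb, Cd300a and Cd300lf, chosen by name as 10 of the 27458 genes in the deposited table. Primary mouse bone marrow macrophages treated with macrophage colony-stimulating factor (M-CSF) gave 6 libraries, 3 from RKIP-/- animals (KO) and 3 from RKIP+/+ animals (WT), with the same M-CSF treatment in both groups. The study asked how RKIP acts on macrophage differentiation. Strain, sex, age and the kind of Pebp1 allele were not stated in the labels, and neither was a distinct animal or culture behind each library. The p-values therefore speak only of the spread among these libraries, which could be technical.

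Libraries held 63607276 to 70059042 estimated counts in KO and 53188659 to 55255365 in WT, and about 4 counts stood for 1 sequenced fragment. Levels are in FPKM, fragments scaled by transcript length and library total, which allows genes to be set against each other. Changes are log2 fold changes, KO over WT, from the quasi-likelihood test of edgeR, each with an approximate standard error, and a gene was called at a Benjamini-Hochberg adjusted p under 0.05, over 11636 genes averaging 1 FPKM or more. Pebp1 was listed at 0 counts in all 3 KO libraries, against 4311, 3560 and 4138 counts in WT libraries, at least 413-fold lower with a floor of 12 counts per library. The 10 macrophage markers were all above that filter. Of them 3 were called higher in KO and 5 lower (30.0% and 50.0%, against 20.3% and 19.4% of all tested genes). Their summed levels were 19649 to 19944 FPKM in KO and 21570 to 23087 FPKM in WT, mostly Lyz2 (16647 FPKM in KO and 19286 FPKM in WT on average), while Mrc1, Adgre1 and Csf1r were higher in KO by 0.56, 0.35 and 0.30 on the log2 scale. Of neutrophil markers, 14 genes summed to 16.8 to 17.7 FPKM in KO and 86.7 to 174 FPKM in WT, with Elane and Prtn3 under 0.1 FPKM on average.

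Several of these receptor families hold pairs of opposite sign that share an extracellular fold. The inhibitory members carry immunoreceptor tyrosine-based inhibitory motifs (ITIMs) in the cytoplasmic tail, which once phosphorylated recruit the phosphatases SHP-1, SHP-2 and SHIP-1. The activating members have short tails and signal through the adaptors DAP12 (Tyrobp) or the Fc receptor gamma chain (Fcer1g), which carry activation motifs (ITAMs). In macrophages and osteoclasts, which form from the same M-CSF dependent precursors, both adaptors are known as co-stimulatory inputs, and the ITIM receptors set thresholds for phagocytosis and cytokine release.

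Promoter sequences, 250 bases before to 50 after the start of the gene, were found in RefSeq for 7 of the 10 genes (GRCm38.p6): Siglece, Cd33, Cd22, Lilra5, Pirb, Cd300a and Cd300lf. They were searched on both strands for GAGGAA, the core bound by the myeloid factor PU.1, for TTGCNNAA, a C/EBP motif, for GAAANNGAAA, an interferon response motif, and for TGANTCA, an AP-1 motif. GAGGAA was found in 6 of the 7 promoters, the exception being Cd22, and in 28.3% of 32851 mouse promoters of this length. The Cd22 stretch (chr7:30878979-30879278, minus strand) lay inside the gene span given below, which begins at 30880342 on that strand. It therefore belongs to another start site. TTGCNNAA was found in 2 of the 7 (10.8% of all promoters), and GAAANNGAAA and TGANTCA in 0 of the 7 (3.44% and 7.81% of all). Shown are the promoters of 2 genes at lower levels in KO (Lilra5 and Cd300lf), of 1 at a higher level (Cd300a), and of Pirb beside its relative Lilra6. Capitals mark every match to the 4 motifs, and a match is a description of letters, not a binding site.
Lilra5, chr7:4237504-4237803, plus strand: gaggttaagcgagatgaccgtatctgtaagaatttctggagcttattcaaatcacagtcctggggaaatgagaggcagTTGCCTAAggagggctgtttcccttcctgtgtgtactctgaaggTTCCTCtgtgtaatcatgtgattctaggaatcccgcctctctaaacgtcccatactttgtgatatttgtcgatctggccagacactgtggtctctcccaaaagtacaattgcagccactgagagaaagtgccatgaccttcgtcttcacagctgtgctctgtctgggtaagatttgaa
Cd300lf, chr11:115133943-115134242, minus strand: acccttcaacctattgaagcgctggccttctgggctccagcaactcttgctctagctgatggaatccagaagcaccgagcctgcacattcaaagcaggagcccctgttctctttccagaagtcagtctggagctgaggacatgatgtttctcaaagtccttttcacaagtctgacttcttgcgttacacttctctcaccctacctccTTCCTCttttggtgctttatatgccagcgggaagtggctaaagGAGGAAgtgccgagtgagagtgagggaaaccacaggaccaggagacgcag
Cd300a, chr11:114889791-114890090, plus strand: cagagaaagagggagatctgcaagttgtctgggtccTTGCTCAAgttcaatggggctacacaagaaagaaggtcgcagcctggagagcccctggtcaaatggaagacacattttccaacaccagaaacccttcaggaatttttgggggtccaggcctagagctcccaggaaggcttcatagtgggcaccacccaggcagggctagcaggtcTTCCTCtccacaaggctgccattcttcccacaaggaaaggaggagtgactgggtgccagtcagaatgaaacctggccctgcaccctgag
Pirb, chr7:3720333-3720632, minus strand: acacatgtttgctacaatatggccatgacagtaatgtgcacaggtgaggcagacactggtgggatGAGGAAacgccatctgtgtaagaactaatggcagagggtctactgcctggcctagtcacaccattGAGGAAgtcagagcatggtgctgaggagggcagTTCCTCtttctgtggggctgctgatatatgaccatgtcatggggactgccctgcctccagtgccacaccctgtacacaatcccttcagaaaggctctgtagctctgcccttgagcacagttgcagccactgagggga
Lilra6, chr7:3915452-3915751, minus strand: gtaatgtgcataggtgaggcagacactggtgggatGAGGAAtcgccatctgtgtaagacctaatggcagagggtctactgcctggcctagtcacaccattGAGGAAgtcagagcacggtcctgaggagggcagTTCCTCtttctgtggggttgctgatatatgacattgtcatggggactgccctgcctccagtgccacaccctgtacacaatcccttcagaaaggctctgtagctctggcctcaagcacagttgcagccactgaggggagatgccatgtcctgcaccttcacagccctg
Lilra5 and Cd300a, which moved in opposite directions, each held 1 GAGGAA and 1 TTGCNNAA match. Pirb, Pira2 and Lilra6 each held 3 GAGGAA matches with the same spacing of 65 and 33 bases, and Siglece held 3 with a spacing of 51 and 25 bases.

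The 10 genes covered a wide range of levels. Sirpa was the highest, with 45.7% to 49.3% of the summed FPKM of the 10 genes in each library, and it stood above 99.2% of all tested genes. Siglec1, Lilrb4a and Pirb followed, each above at least 95.9% of tested genes, then Cd33 and Cd300a, above 84.2% and 82.7%. Cd22 and Lilra5 were near the filter, above 10.1% and 1.10% of tested genes, and Cd300lf and Siglece lay under it. Neighbours in this order had separate ranges over the 6 libraries except in 3 places. Cd33 was above Cd300a in all 6 libraries, though their ranges overlapped, and Cd22 was above Lilra5, and Lilra5 above Cd300lf, in 5 of 6.

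**Figure D1:**
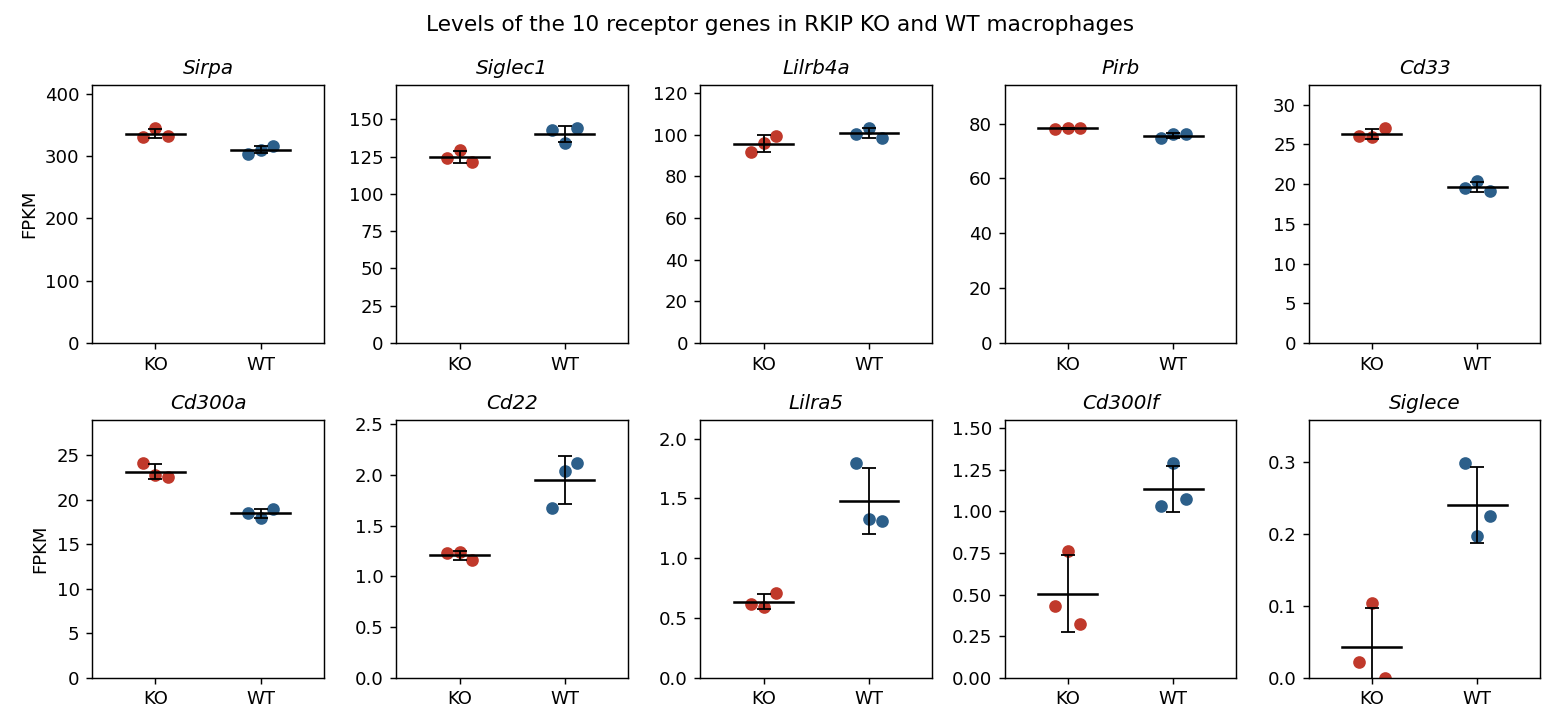
Level in FPKM (linear axis from 0) of each of the 10 receptor genes, with 1 point per library, KO left and WT right, and the mean ± SD (n = 3 each) as black bars. The KO and WT points overlap only for Lilrb4a. The 4 genes with the lowest levels, Cd22, Lilra5, Cd300lf and Siglece, are all lower in KO.

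Of the 8 genes that passed the filter, 2 were called higher in KO (Cd33 and Cd300a), 4 lower (Siglec1, Cd22, Lilrb4a and Lilra5), and Sirpa and Pirb were not past the threshold. Over all tested genes 20.3% were called higher and 19.4% lower, 39.7% together. Lilra5 passed the filter only through its WT level, as did 203 tested genes with a KO mean under 1 FPKM. The median log2 fold change of the 8 was -0.07, against -0.01 over all tested genes. In FPKM the groups did not overlap for 9 of the 10 genes. Among the 8 tested, 4 were higher and 3 lower without overlap, and over all tested genes 32.4% were higher and 19.1% lower in that sense. The split of calls over all genes depended on scaling: 51.2% of calls were higher with TMM scaling, 39.9% with upper-quartile scaling and 63.5% with limma on log2(FPKM + 1). Fold changes also followed transcript length, with a median of -0.32 in the shortest 10% of tested genes and 0.20 in the longest 10%, so values with a length and GC correction are given for the receptor genes and for any other called gene named below whose log2 value they move by over 1.5 times or whose call they end. With that correction 3 of the 8 were called higher (Sirpa added) and 4 lower, against 14.2% and 16.3% of all genes in that fit. As RNA came from bulk cultures, fewer cells of a type and less RNA per cell cannot be told apart.

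**Figure D2:**
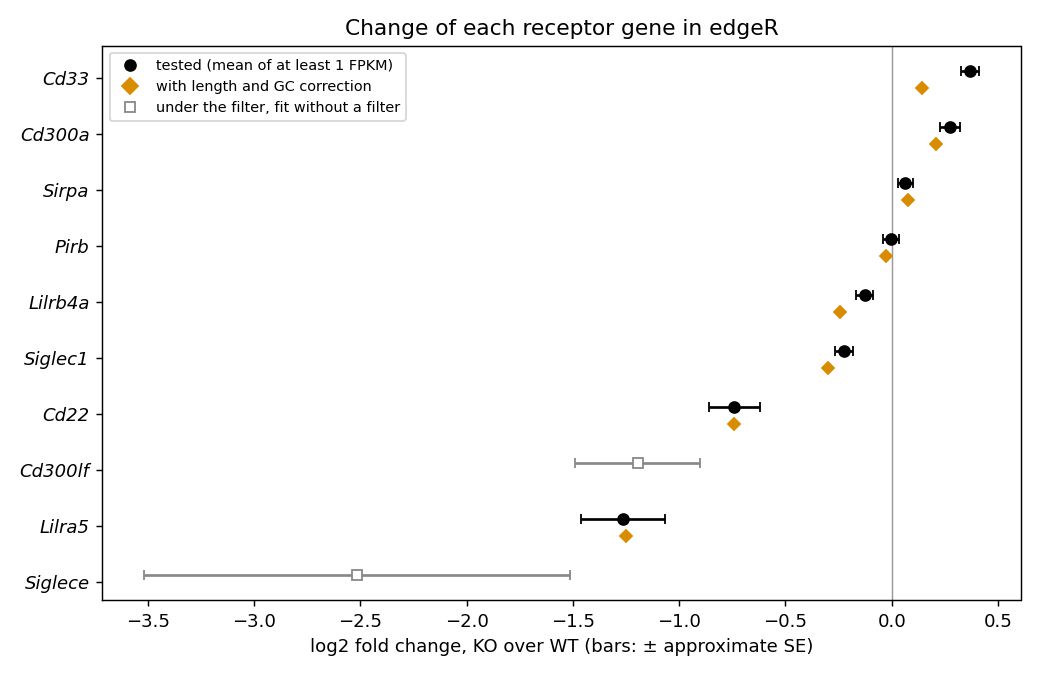
Log2 fold change (KO over WT, horizontal axis) of each receptor gene with its approximate standard error. Filled circles are the 8 tested genes, diamonds the same genes with length and GC correction, and open squares the 2 genes under the filter, from a fit without it. Cd33 and Cd300a lie to the right of 0 with either estimate, at 0.37 and 0.27 uncorrected, and Lilra5 and Cd22 lie at -1.26 and -0.74.

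Siglecs bind sialylated glycans. Siglec1 (sialoadhesin, CD169) is an adhesion receptor of macrophages without an ITIM. Its gene (chr2:131069220-131086765, minus strand) was at 124, 129 and 122 FPKM in KO, against 143, 134 and 144 FPKM in WT libraries. All KO libraries were below all WT libraries. Siglec1 was lower in KO by a log2 fold change of -0.22 ± 0.04 (1.17-fold, edgeR adjusted p = 0.00160), and by -0.30 with length and GC correction (adjusted p = 0.000271). It was called lower under all 16 alternatives.

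Siglec1 is known as an interferon-induced gene. Of 25 interferon response genes, all tested, 14 fell, 1 rose and 10 were not past the threshold, with a median log2 fold change of -0.31. Lower were thus 56.0% and higher 4.0%, against 19.4% and 20.3% of all tested genes. Isg15, an interferon-induced ubiquitin-like modifier, had 10.4 ± 2.05 FPKM in KO and 21.3 ± 3.96 FPKM in WT (log2 fold change -1.09, edgeR adjusted p = 0.000301). Usp18, which limits interferon receptor signalling, had 2.53 ± 0.44 FPKM in KO and 4.92 ± 0.78 FPKM in WT (-1.01, adjusted p = 0.000282). Zbp1, a nucleic acid sensor, fell by 0.94 and Ifi44 by 1.05 on the log2 scale, and Ifi44 passed the filter only through its WT level. The part of interferon signalling in the level of Siglec1 was not tested.

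Cd33 was the Siglec that rose. In humans CD33 is an inhibitory ITIM receptor of myeloid cells. The mouse gene (chr7:43524216-43533171, minus strand) was at 26.02, 25.97 and 27.08 FPKM in KO, against 19.5, 20.4 and 19.1 FPKM in WT libraries. The groups were well apart, with a log2 fold change of 0.37 ± 0.04 (1.29-fold, edgeR adjusted p = 5.78e-05). With length and GC correction the rise shrank to 0.14 (1.11-fold, adjusted p = 0.00980), and it was called higher under all 16 alternatives.

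Cd22, the ITIM Siglec best known as an inhibitor of the B cell antigen receptor, was low and fell. Its gene (chr7:30865402-30880342, minus strand) was at 1.23, 1.24 and 1.16 FPKM in KO, against 1.68, 2.04 and 2.12 FPKM in WT libraries. Every KO library was below every WT library, and the log2 fold change was -0.74 ± 0.12 (1.67-fold, edgeR adjusted p = 0.000599). It was called lower under all 15 alternatives that kept the gene, and the value was -0.74 with length and GC correction. The 10 B cell markers in the table summed to 59.0 to 66.5 FPKM in KO and 38.9 to 43.7 FPKM in WT. The sum was mostly Ighm (41.8 ± 3.96 FPKM in KO and 22.5 ± 2.49 FPKM in WT). Cd79a, Ms4a1, Pax5, Cr2 and Vpreb1 averaged under 0.1 FPKM. Only 3 markers were tested. Ighm and Ebf1 were called higher (66.7%, against 20.3% of all tested genes). Blnk had a log2 fold change of -0.10 and was not past the threshold (edgeR adjusted p = 0.0583). With length and GC correction 2 were called higher and 1, Blnk, lower.

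Siglece, an ITIM Siglec of mouse neutrophils and macrophages, was close to its detection limit. The gene (chr7:43651070-43660161, minus strand) was at 0.0224, 0.104 and 0 FPKM in KO, against 0.299, 0.197 and 0.225 FPKM in WT libraries. The counts were 3, 14 and 0 in KO and 35, 23 and 25 in WT, which come to 4 fragments in KO and 21 in WT. Scaled by library totals the KO over WT ratio was 0.153 (exact 95% interval 0.0383 to 0.455, counting error only). In the fit without a filter the log2 fold change was -2.52 ± 1.002 and not past the threshold (edgeR adjusted p = 0.159). It was past it with DESeq2 (adjusted p = 0.0313), limma on log2(FPKM + 1), counts divided by 4 and without KO library 2. No other Siglec passed the filter. Siglecf, Siglecg, Siglech, Siglec15 and Mag averaged 0.133, 0.687, 0.135, 0.122 and 0.506 FPKM in KO and 0.0795, 0.800, 0.0711, 0.0992 and 0.382 FPKM in WT.

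Signal-regulatory proteins showed a contrast within the family. SIRP alpha is the inhibitory receptor through which macrophages read CD47 as a signal not to engulf a cell. Sirpa (chr2:129592835-129632228, plus strand) was at 331, 345 and 332 FPKM in KO, against 304, 310.4 and 315 FPKM in WT libraries. The FPKM of the groups did not overlap, but the log2 fold change in edgeR was 0.06 ± 0.04 and not past the threshold (adjusted p = 0.175). With length and GC correction it was 0.07 and past it (adjusted p = 0.0322), and under the other 15 alternatives it was not called.

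The activating relatives of Sirpa, Sirpb1a, Sirpb1b and Sirpb1c, which signal through DAP12, all fell. Sirpb1a was at 0.548, 0.595 and 0.579 FPKM in KO, against 2.21, 1.74 and 1.84 FPKM in WT libraries (log2 fold change -1.80 ± 0.17, 3.48-fold lower, edgeR adjusted p = 1.71e-05). Sirpb1b had 0.823 ± 0.0723 FPKM in KO and 1.77 ± 0.0856 FPKM in WT (-1.15, adjusted p = 0.000126). Sirpb1c had 1.13 ± 0.303 FPKM in KO and 2.83 ± 0.342 FPKM in WT (-1.37, adjusted p = 0.000147). All 3 calls held in the 15 alternatives that kept the genes, although Sirpb1a and Sirpb1b passed the filter only through WT. Their transcripts are 96.1% to 97.3% identical over their shared length, so reads could be split among them and the sum is the firmer value. Summed, they stood at 2.85, 2.36 and 2.38 FPKM in KO, against 7.28, 6.21 and 6.10 FPKM in WT libraries. Relative to Sirpa in the same library, a ratio free of library scaling, the sum was 0.754% ± 0.0927 in KO and 2.11% ± 0.249 in WT (SD, n = 3 each). The groups did not overlap in this ratio, with an exact two-sided permutation p = 0.1, the smallest that 3 against 3 allows (0.1 after Benjamini-Hochberg adjustment over 4 ratios).

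Cd47, the ligand of SIRP alpha, rose. It was at 35.6, 34.8 and 36.1 FPKM in KO, against 27.6, 27.8 and 26.6 FPKM in WT libraries. The log2 fold change was 0.32 ± 0.04 (edgeR adjusted p = 0.000112), and 0.14 with length and GC correction (adjusted p = 0.00908). Thbs1, a secreted protein that also binds CD47, rose as well, with 537 ± 30.0 FPKM in KO and 426 ± 14.6 FPKM in WT (log2 fold change 0.28, adjusted p = 0.000290, and 0.18 with length and GC correction). Among 11 tested protein ligands of these receptors, 2 rose, 4 fell and 5 were not past the threshold, with a median of -0.09. Higher were thus 18.2% and lower 36.4%, against 20.3% and 19.4% of all tested genes. Angptl2, a ligand of PIR-B, fell by 0.30 and Selplg, a mucin of leukocytes, by 0.26 on the log2 scale. The call of Selplg ended with limma on log2(FPKM + 0.1) (adjusted p = 0.0504). Cd200, the ligand of CD200R1, was at 4.88 ± 0.218 FPKM in KO and 4.32 ± 0.206 FPKM in WT and was not past the threshold (log2 fold change 0.12, adjusted p = 0.244).

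In the leukocyte immunoglobulin-like group Lilra5 changed most of the 3 genes followed, whose human counterpart is an activating receptor that pairs with the Fc receptor gamma chain. Lilra5 (chr7:4237754-4243463, plus strand) was at 0.613, 0.591 and 0.708 FPKM in KO, against 1.80, 1.33 and 1.31 FPKM in WT libraries. WT library 1 was the highest, and all 3 WT libraries were clear of the KO libraries. The log2 fold change was -1.26 ± 0.20 (2.40-fold lower, edgeR adjusted p = 0.000477), -1.25 with length and GC correction, and it was called lower in the 15 alternatives that kept the gene. Over libraries left out in turn it lay between -1.34 and -1.10.

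Lilrb4a (gp49B), an ITIM receptor of macrophages and mast cells, showed a small difference that did not hold in all settings. It was at 91.5, 96.1 and 99.6 FPKM in KO, against 100.3, 103 and 98.5 FPKM in WT libraries, so the groups overlapped. Its log2 fold change was -0.13 ± 0.04 (edgeR adjusted p = 0.0275), and -0.25 with length and GC correction (adjusted p = 0.000284). The call ended with limma on either pseudocount (adjusted p = 0.292 and 0.318), without the filter (0.105), and without KO library 1 (0.123), KO library 2 (0.0545) or WT library 2 (0.113). Lilr4b (gp49A), its relative without an ITIM, is 95.0% identical over 3189 bases and fell by 0.17 on the log2 scale, at 58.9 ± 2.71 FPKM in KO and 63.6 ± 1.25 FPKM in WT (adjusted p = 0.00866). That call ended with limma on either pseudocount, and the value was -0.28 with length and GC correction. The Lilr4b to Lilrb4a ratio was 0.615 ± 0.00668 in KO and 0.632 ± 0.0065 in WT (exact permutation p = 0.1, adjusted 0.1). Reads of Lilrb4a (chr10:51490956-51496611, plus strand) can also be shared with Gm49339, which overlaps it on the same strand and had 12.3 ± 1.53 FPKM in KO and 15.7 ± 1.54 FPKM in WT. The antisense Gm40645 was at most 0.101 FPKM.

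Pirb, the ITIM receptor for MHC class I molecules, did not change past the threshold. It was at 78.2, 78.4 and 78.2 FPKM in KO, against 74.6, 76.1 and 76.2 FPKM in WT libraries. The KO libraries were all above the WT libraries in FPKM, while the edgeR log2 fold change, with its own scaling, was -0.00 ± 0.04 (adjusted p = 0.946), and its sign changed in 6 of 16 alternatives. Its gene (chr7:3711409-3720391, minus strand) lies among near-identical activating PIR-A-like genes, and 9 of them share 93.8% to 97.3% identity with Pirb over the aligned part. Of these 9, 1 fell (Lilra6) and 8 were not past the threshold, with log2 fold changes of -0.18 to -0.03. The lowest value, -0.18 ± 0.83, was that of Gm15930, whose counts were 663, 498 and 0 in KO and 346, 338 and 426 in WT libraries. The sum of the 9 genes was 268, 277 and 279 FPKM in KO, against 276, 288 and 282 FPKM in WT libraries, and reads could be split among these genes. The sum relative to Pirb was 3.51 ± 0.0746 in KO and 3.73 ± 0.0431 in WT (exact permutation p = 0.1, adjusted 0.1). This ratio was not corrected for transcript length, and most of the 9 transcripts are shorter than that of Pirb (3824 bases). Lilra6 had 38.8 ± 1.51 FPKM in KO and 40.8 ± 1.43 FPKM in WT (log2 fold change -0.13, edgeR adjusted p = 0.0444), and that call held in 7 of 16 alternatives, with -0.08 under length and GC correction (adjusted p = 0.155).

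Of 11 tested SIRP, PIR and related genes other than the 10, 1 rose, 7 fell and 3 were not past the threshold (Pira2, Pilrb1 and Pilrb2), with a median log2 fold change of -0.17. Higher were thus 9.09% and lower 63.6%, against 20.3% and 19.4% of all tested genes. These shares leave out the PIR-A-like genes named with Gm symbols, none of which was called. Sirpb1a and Sirpb1b passed the filter only through WT, which favours a count of falls. Reads could be split among the Sirpb1 genes, so their calls are not independent. Pilra, an inhibitory receptor for sialylated glycoproteins, was at 7.75, 7.69 and 6.87 FPKM in KO, against 11.9, 13.1 and 12.1 FPKM in WT libraries (log2 fold change -0.79 ± 0.07, edgeR adjusted p = 1.33e-05). Its activating partners, Pilrb1 and Pilrb2, had log2 fold changes of -0.15 ± 0.17 and 0.04 ± 0.14 (adjusted p = 0.539 and 0.847). Pilra relative to the sum of Pilrb1 and Pilrb2 was 1.51 ± 0.252 in KO and 2.51 ± 0.0123 in WT, without overlap (exact permutation p = 0.1, adjusted 0.1), with parts of the transcripts 95.5% to 95.8% identical. Lair1, an inhibitory collagen receptor, fell by 0.22 on the log2 scale (adjusted p = 0.0194), and by 0.44 with length and GC correction. Its call held in 10 of 15 alternatives and ended with both limma fits, without the filter, and without KO library 3 or WT library 1 (adjusted p up to 0.0810). Cd200r1, the inhibitory receptor for CD200, rose by 0.17 (33.7 ± 0.657 FPKM in KO and 28.8 ± 0.899 FPKM in WT, adjusted p = 0.00550).

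**Figure D3:**
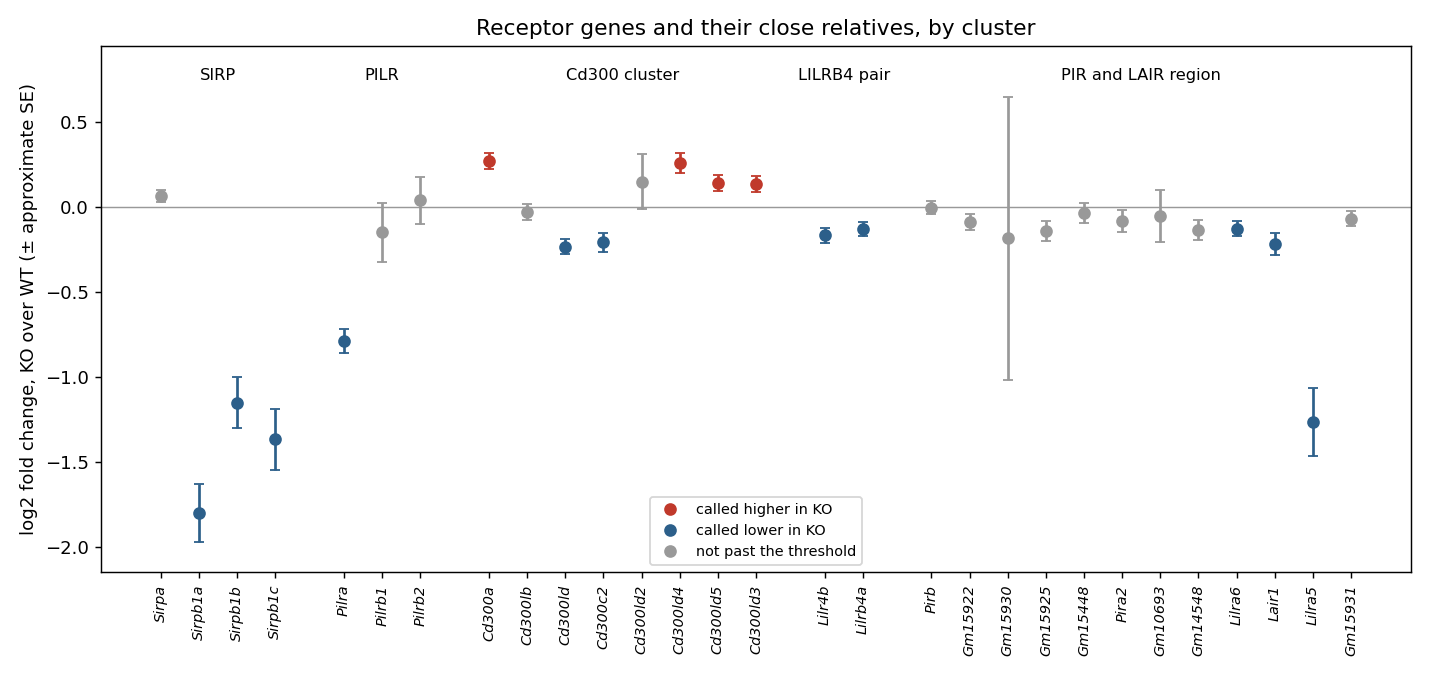
Log2 fold change (KO over WT, vertical axis) with approximate standard error of the tested receptor genes and their relatives, grouped by family and, outside the SIRP group, in the order of their start positions. Red points were called higher in KO, blue points lower, and grey points were not past the threshold. Sirpb1a, Sirpb1b, Sirpb1c and Lilra5 lie below -1.1, while Sirpa, Pirb and most PIR-A-like genes lie near 0.

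The CD300 family binds phospholipids of the cell membrane. Cd300a, an ITIM receptor for phosphatidylserine on dying cells, rose. The gene (chr11:114890041-114904654, plus strand) was at 24.2, 22.8 and 22.6 FPKM in KO, against 18.5, 18.01 and 19.0 FPKM in WT libraries. All KO libraries were above all WT libraries, with a log2 fold change of 0.27 ± 0.05 (1.21-fold, edgeR adjusted p = 0.000821), 0.21 with length and GC correction (adjusted p = 0.00364). It was called higher under all 16 alternatives.

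Cd300lf (CLM-1), the other ITIM member of the family, was lower in KO but near the filter. It was at 0.430, 0.763 and 0.320 FPKM in KO, against 1.03, 1.29 and 1.07 FPKM in WT libraries, with counts of 152, 285 and 124 in KO and 333, 405 and 334 in WT. All KO libraries were below all WT libraries, and KO library 2 was the nearest to WT. The KO over WT ratio of fragments was 0.421 (exact 95% interval 0.341 to 0.518, counting error only). In the fit without a filter, where 6.15% of 27458 genes were called lower and 8.23% higher, the log2 fold change was -1.19 ± 0.29 (edgeR adjusted p = 0.0319). That call ended with limma on log2(FPKM + 0.1) and when any of KO library 1, KO library 3 or a WT library was left out (adjusted p = 0.0659 to 0.128). The gene (chr11:115116214-115133992, minus strand) lies within Rab37 on the opposite strand, which was at 0.0215 to 0.0638 FPKM.

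Of the other 10 Cd300 genes, 7 were tested, and 3 rose, 2 fell and 2 were not past the threshold (Cd300lb and Cd300ld2). Of the 7, 42.9% were thus higher and 28.6% lower, against 20.3% and 19.4% of all tested genes. Cd300ld4 had 55.0 ± 2.41 FPKM in KO and 44.3 ± 2.44 FPKM in WT (log2 fold change 0.26, edgeR adjusted p = 0.00439), and Cd300ld5 and Cd300ld3, 98.8% to 99.9% identical to it, rose by 0.14 each. With length and GC correction the 3 values were larger, at 0.54 for Cd300ld4, 0.42 for Cd300ld5 and 0.41 for Cd300ld3. Reads could be split among these 3 genes, so differences between their separate values and calls are not firm. The call of Cd300ld4 held under all 16 alternatives. That of Cd300ld5 held in 10 of 16 and that of Cd300ld3 in 9 of 16. Both ended under upper-quartile scaling, without the filter and without KO library 1, KO library 2, WT library 1 or WT library 3, and that of Cd300ld3 also without KO library 3 (adjusted p up to 0.146 and 0.145). Cd300ld, an activating member, fell, with 57.4 ± 0.959 FPKM in KO and 64.9 ± 1.88 FPKM in WT (-0.23, adjusted p = 0.00113). Cd300c2 fell by 0.21 (adjusted p = 0.0116), but its value was -0.01 with length and GC correction. Cd300lf shares 348 bases at 91.7% identity with Cd300ld3, Cd300ld4 and Cd300ld5, which were at higher levels in KO.

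Of 20 tested signalling partners of these receptors, 2 rose, 6 fell and 12 were not past the threshold, with a median log2 fold change of 0.02. Here too the 8 calls were a share close to the 39.7% called over all tested genes (20.3% higher and 19.4% lower). Tyrobp, the DAP12 adaptor, was at 247, 231 and 249 FPKM in KO, against 371, 308 and 332 FPKM in WT libraries (log2 fold change -0.53 ± 0.06, 1.44-fold lower, edgeR adjusted p = 8.47e-05). With length and GC correction the fall of this short transcript was -0.18 (adjusted p = 0.0155). Fcer1g, the Fc receptor gamma chain, had 384 ± 10.02 FPKM in KO and 404 ± 9.86 FPKM in WT, and its log2 fold change was -0.13 (adjusted p = 0.0309) but 0.20 in the opposite direction with that correction (adjusted p = 0.00113), and the call of a fall held in 7 of 16 alternatives. Hcst, the DAP10 adaptor, was not past the threshold (log2 fold change -0.47, adjusted p = 0.150). Dok2, an adaptor that restrains Ras signalling, fell by 0.34 (by 0.21 with length and GC correction), while the adaptor Sh2b3 rose by 0.22 on the log2 scale (adjusted p = 0.00115 and 0.00368). Both calls held under all 16 alternatives. Of the phosphatases recruited by ITIMs, Ptpn6 (SHP-1) fell by 0.18 (adjusted p = 0.00462), with -0.08 under length and GC correction (adjusted p = 0.0959) and the call also ending with both limma fits, and Ptpn11 (SHP-2) and Inpp5d (SHIP-1), named for their role, had 0.06 and 0.05 (adjusted p = 0.402 and 0.383).

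Genes that make, transfer and remove sialic acid, the sugar that Siglecs and PILRs read, moved in both directions. Of 20 tested, 6 rose, 2 fell and 12 were not past the threshold, with a median log2 fold change of 0.04. These 8 calls were a share close to the 39.7% called over all tested genes (20.3% higher and 19.4% lower). St8sia4, which builds polysialic acid, was at 7.91, 7.26 and 8.84 FPKM in KO, against 4.71, 4.14 and 4.26 FPKM in WT libraries (log2 fold change 0.82 ± 0.07, edgeR adjusted p = 8.17e-06), and the change was 0.38 with length and GC correction. St6gal1, which adds the sialic acid linkage preferred by CD22, had 37.6 ± 1.85 FPKM in KO and 30.9 ± 0.871 FPKM in WT (0.23, adjusted p = 0.00181). Nans, the sialic acid synthase, fell by 0.34 (adjusted p = 0.000170), and Cmas, which activates sialic acid for transfer, rose by 0.26 (adjusted p = 0.0104). All 4 calls held under the 16 alternatives.

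**Figure D4:**
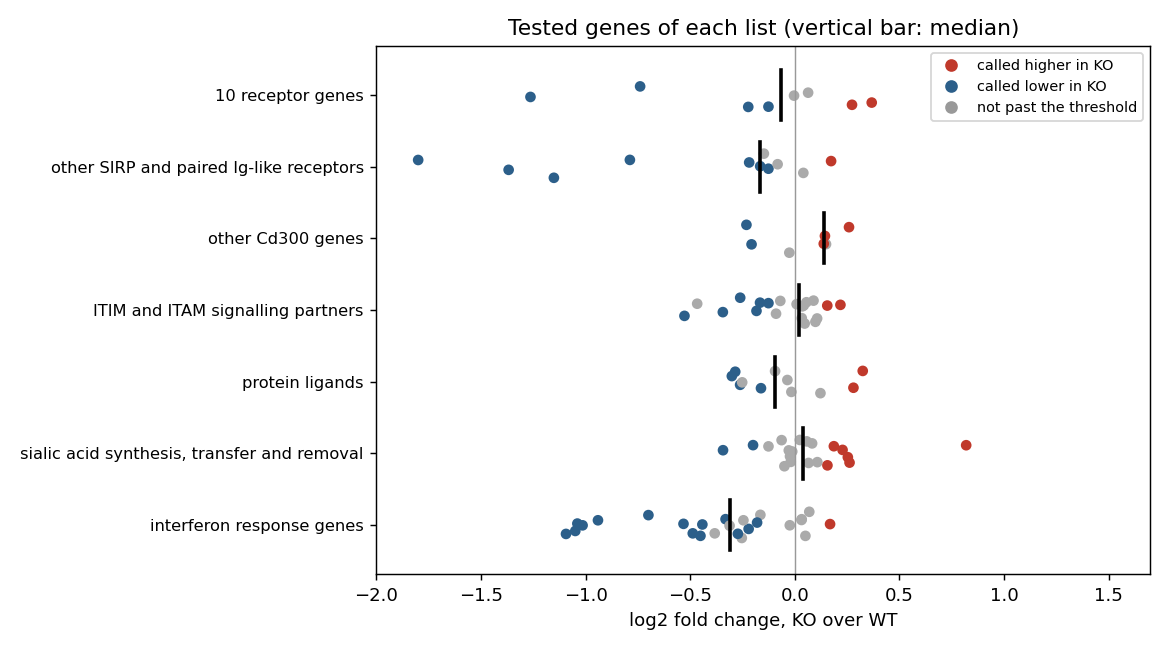
Log2 fold change (KO over WT, horizontal axis) of each tested gene of the receptor list and 6 related lists, with the list median as a vertical bar and random vertical spread. Red points were called higher in KO, blue points lower, and grey points were not past the threshold. The interferon response genes have a median of -0.31, and the receptors a median of -0.07.

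Several of these receptors are known in neutrophils as well as macrophages, and neutrophil markers are given beside them. Of 14 markers 9 were tested, 8 fell (88.9%, against 19.4% of all tested genes) and Csf3r was not past the threshold. All of the 8 but Mmp8 had a KO mean under 1 FPKM and so passed the filter only through WT, which favours a count of falls. Ltf, a granule protein, had 0.19 ± 0.00385 FPKM in KO and 6.95 ± 0.03 FPKM in WT (log2 fold change -5.20, edgeR adjusted p = 2.84e-11). The 14 markers summed to 17.7, 17.7 and 16.8 FPKM in KO, against 86.7, 166 and 174 FPKM in WT libraries. WT library 1, with the lowest neutrophil sum of the WT libraries, had the highest level of Lilra5, of summed Sirpb1 genes and of Siglece in the whole set, and the lowest level of Cd300lf, Cd22 and Pilra among WT libraries. Not every neutrophil marker was low in that library: Ltf was at 6.98, 6.93 and 6.93 FPKM and Mmp8 at 8.74, 8.79 and 8.28 FPKM in WT libraries 1 to 3. The part of these cells in the lower levels of Lilra5, Cd300lf, Siglece, Sirpb1 genes and Pilra was not tested.

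**Figure D5:**
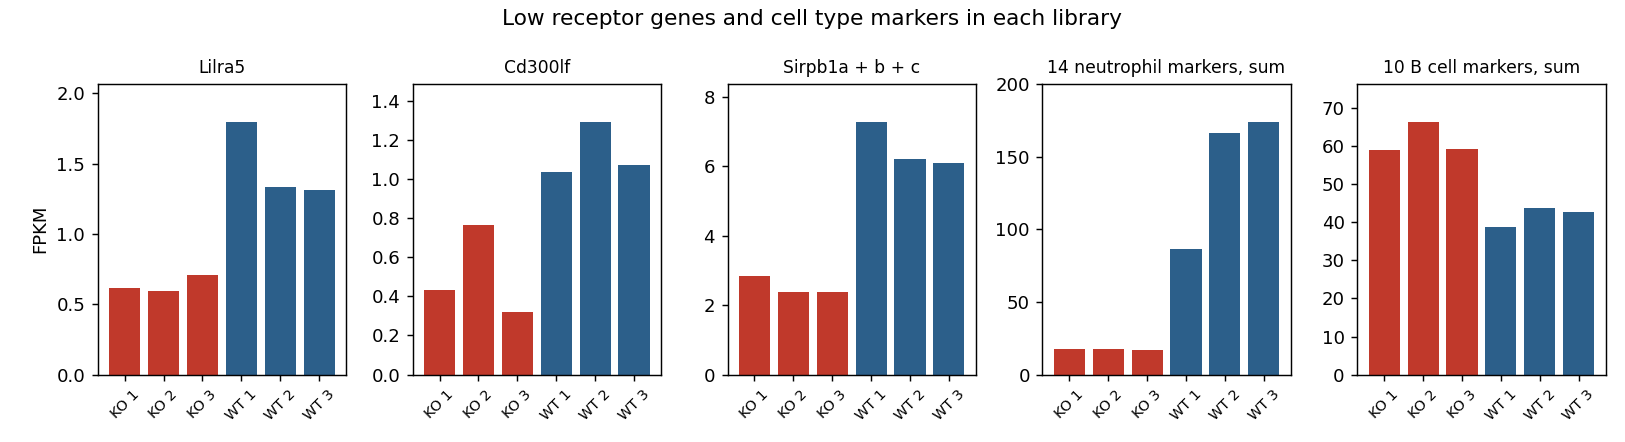
Level in FPKM (bars from 0, each panel with its own axis) of Lilra5, Cd300lf, the summed Sirpb1 genes, 14 summed neutrophil markers and 10 summed B cell markers in each library, KO in red on the left and WT in blue on the right. The first 4 panels are lower in all 3 KO libraries, and WT library 1 is the highest for Lilra5 and the Sirpb1 sum and the lowest WT library for Cd300lf and the neutrophil sum. The B cell marker sum, mostly Ighm, is higher in KO.

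For each receptor gene past the threshold, the 2 protein-coding genes outside the lists with the most similar pattern over the 6 libraries were found among 8943 candidates, by the root mean square difference of centred log2 CPM. Cd33 was closest to Fbxo11 and Dse (0.00753 and 0.0197, against its own spread of 0.189 on the same scale). Siglec1 was closest to Myl12b and Rtl8b (0.0145 and 0.0165, own spread 0.145), Cd300a to Rtn4 and Mllt6 (0.0253 and 0.0263, own spread 0.142), and Lilrb4a to Gusb and Vopp1 (0.0188 and 0.0191, own spread 0.0931). Cd22 was closest to Mrpl52 and Tgm2 (0.0753 and 0.0767, own spread 0.433) and Lilra5 to Sec61g and Ndufa3 (0.109 and 0.136, own spread 0.717). Likeness was measured without length and GC correction. With it, log2 fold changes were -0.30 for Siglec1, -0.09 for Myl12b and -0.03 for Rtl8b (edgeR adjusted p = 0.0864 and 0.737 for these 2). Lilrb4a was at -0.25, Vopp1 at -0.26 and Gusb at -0.06 (0.245 for Gusb). Cd33 was at 0.14, Fbxo11 at 0.23 and Dse at 0.29. Cd300a was at 0.21, Rtn4 at 0.18 and Mllt6 at 0.12 (0.139 for Mllt6). Cd22 was at -0.74, Mrpl52 at -0.40 and Tgm2 at -0.75.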

How the data were processed

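RNA was measured in 3 KO and 3 WT libraries of M-CSF treated bone marrow macrophages. Per the labels' protocols, Trizol RNA was selected with oligo(dT) and libraries were stranded with dUTP. The submitters' processing notes name cutadapt 1.9, HISAT2 2.0.4 and StringTie 1.3.4d, with no role, and the genome build and the use of strand in counting were not given in the sources used here. The authors deposited FPKM and estimated counts, which had been rounded, for 27458 genes. Both follow from one coverage: their ratio varied by 0.173% between libraries (99th percentile, 9046 genes). The deposited value 4 was found 5769 times, against 3204 for 3 and 2041 for 5. Coordinates are those of the table, identical to GENCODE M21 for 9 of the 10 genes. Replicates differed by more than sampling noise (3.65 to 7.44 in chi-square over its degrees of freedom).

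Counts were tested with edgeR 4.0.16 (R 4.3.3, quasi-likelihood, TMM, two-sided, for 11636 genes averaging 1 FPKM or more) and checked on simulated counts. Standard errors were worked back from the F statistic. The length and GC correction used a loess trend per library (span 0.3) as offset. Similar transcripts were found with BLAST 2.17.0 (at least 90% identity over at least 30% of the shorter transcript). Alternatives used limma 3.58.1 on log2(FPKM + 1) and log2(FPKM + 0.1), DESeq2 1.42.0, other scalings and filters, counts divided by 4, a replicate block, and each library left out. Siglece and Cd300lf, under the filter, were read from the fit without it, an addition made after seeing the data. The receptor genes, lists and tests were chosen with earlier results of these data known. Named were the 10 genes, up to 4 genes of smallest p of each other list, their listed relatives and ligands, and the 2 nearest patterns. Ptpn6, Ptpn11, Inpp5d, Fcer1g, Hcst, Csf1r and Mmp8 were added for their role after their values were seen. Some listed genes are not reported here.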

Additional observations from a re-analysis of the deposited data

How the results depend on the processing

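Of the 10 receptor genes, Siglec1, Cd33, Cd22, Lilra5 and Cd300a kept their direction and their call under every alternative in which they were tested. The number of receptors called lower was 2 instead of 4 with a mean of at least 5 FPKM, because Cd22 and Lilra5 are under that filter, and 3 to 4 when a library was left out. The number called higher was 2 when a library was left out. Over all genes, calls lower in KO numbered 1500 with limma on log2(FPKM + 0.1), against 2253, and leaving out a library gave 1969 to 2272 genes higher and 1794 to 2047 lower, against 2364 and 2253. The log2 fold change of Pirb, -0.00398 with the settings of the report, was 0.0491 with limma on log2(FPKM + 1), 0.0497 with limma on log2(FPKM + 0.1), 0.0165 without a filter, and between -0.0144 and 0.00595 when a library was left out, none of them past the threshold, and the cause was not tested. Whether replicate numbers pair the libraries could not be told, because all correlations of deviations between KO and WT libraries were small. Same-numbered libraries correlated by 0.02, 0.19 and -0.04, and libraries of unlike number by -0.17 to 0.16. With the replicate number as a block, 2407 genes were higher and 2294 lower, and of the receptors 2 were higher and 4 lower. Depth limits Siglece (4 fragments in KO and 21 in WT) most.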

Other observations

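Other families of myeloid immunoglobulin-like receptors were read after the values of the 10 genes had been seen. Of 3 tested TREM genes, 1 fell (33.3%, against 19.4% of all tested genes) and 2 were not past the threshold. Treml4, a TREM-like receptor, was at 3.03, 3.24 and 3.48 FPKM in KO, against 5.45, 5.37 and 6.44 FPKM in WT libraries (log2 fold change -0.87, edgeR adjusted p = 0.000121), without overlap. Trem2, the DAP12-coupled lipid receptor, had 76.6 ± 4.77 FPKM in KO and 77.1 ± 0.492 FPKM in WT and was not past the threshold (-0.06, adjusted p = 0.330). Trem1, under the filter, was at 0.244, 0.246 and 0.242 FPKM in KO, against 0.651, 0.723 and 0.807 FPKM in WT libraries (-1.59 without the filter, adjusted p = 0.00165).

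Of 9 tested B7 family and related checkpoint genes, 2 rose and 2 fell (22.2% each, against 20.3% and 19.4% of all tested genes). Havcr2 (TIM-3) had 9.79 ± 0.278 FPKM in KO and 14.5 ± 1.31 FPKM in WT (log2 fold change -0.62, edgeR adjusted p = 6.30e-05), and Cd276 fell by 0.28. Cd86, a co-stimulatory ligand for T cells, had 1.81 ± 0.127 FPKM in KO and 1.296 ± 0.0391 FPKM in WT (0.43, adjusted p = 0.0158, and 0.0583 without KO library 2). Of 5 tested SLAM family genes, Slamf9 fell, with 6.61 ± 0.957 FPKM in KO and 10.3 ± 0.584 FPKM in WT (-0.70, adjusted p = 0.000508), and Cd84 rose by 0.18, a change of 0.03 with length and GC correction (adjusted p = 0.502). Fgr, a Src family kinase under the filter, was at 0.411, 0.285 and 0.339 FPKM in KO, against 1.298, 1.21 and 1.32 FPKM in WT libraries (-1.91 without the filter, adjusted p = 0.000517), and Cd300e was at 0.327, 0.263 and 0.641 FPKM in KO, against 1.11, 1.01 and 0.956 FPKM in WT libraries (-1.34, adjusted p = 0.0307). Both were picked after their values were seen.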
